A study of Mus musculus with 6 samples.

Results

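Messenger RNA of 10 glycolysis genes (Slc2a1, Hk2, Gpi1, Pfkl, Pfkm, Aldoa, Pgk1, Eno1, Ldha and Ldhb) was compared between genotypes in the aged mouse aorta, by RNA sequencing of C57BL/6 animals. The genes were chosen by name, all 10 were listed among the 8690 gene names of the deposited FPKM table (sequenced fragments scaled to transcript length and library total), and their 24 rows were summed by name. All 10 passed the minimum mean of 1 FPKM and were among the 8605 genes tested. Mice with a Sirt2 deletion (Sirt2-KO, replicates 4, 7 and 8) were set against wild type mice (WT, replicates 2, 4 and 8), with 1 aorta of each of 3 mice per genotype. The strain and the organ were the same in both genotypes, and "aged" is the study's own word. No source used here gives the age in months, the sex, or how and in which cells Sirt2 was deleted. The comparison asks how the aged aorta's transcripts differ when this NAD-dependent deacetylase is missing.

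Glycolysis splits glucose into pyruvate in the cytosol and yields ATP and NADH. Glucose enters through transporters such as GLUT1 (Slc2a1), is trapped by hexokinase, and passes phosphofructokinase, the main control point, before aldolase, phosphoglycerate kinase and enolase complete the lower pathway. Lactate dehydrogenase then interconverts pyruvate and lactate. Smooth muscle of arteries is known for making much lactate even with oxygen present, and fat around the vessel uses the same enzymes to feed lipid synthesis.

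Sirt2 itself stood at 2.56, 3.32 and 2.23 FPKM in Sirt2-KO replicates 4, 7 and 8, against 26.5, 34.1 and 49.2 FPKM in WT replicates 2, 4 and 8 (log2 difference -3.31, SE 0.239, adjusted p = 0.00156, limma). Log2 differences here are of log2(FPKM + 1), Sirt2-KO minus WT. All p-values are two-sided, and adjusted ones are by limma with Benjamini-Hochberg correction over all tested genes. All 22 smooth muscle markers were listed, and none passed. Of these 21 were lower and 1 higher, with a median log2 difference of -0.46. At an unadjusted p under 0.05, 7 were lower and 0 higher, where 12.4% of all tested genes were lower. For 6 markers all Sirt2-KO values lay below all WT values, as for 17.3% of all tested genes. The markers summed to 13344 to 22156 FPKM in Sirt2-KO and to 15191 to 26710 FPKM in WT. The median difference over all tested genes was -0.08. In bulk aorta, fewer cells of a type and less RNA per cell cannot be told apart.

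At an adjusted p of 0.05 none of the 10 genes passed by limma (0 of 10, where 2.91% of all tested genes passed). Eno1, Ldha and Hk2 were higher in all 3 Sirt2-KO aortas than in any WT aorta, Slc2a1 and Pfkm were lower in all 3, and Gpi1, Pfkl, Aldoa, Pgk1 and Ldhb overlapped between the genotypes. The groups thus lay apart for 5 of 10 genes, against 33.3% of all tested genes. The same 5 genes had an unadjusted p under 0.05, against 24.8% of all tested genes. Over the 10 genes the median log2 difference was 0.18, with 7 genes higher and 3 lower.

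**Figure D1:**
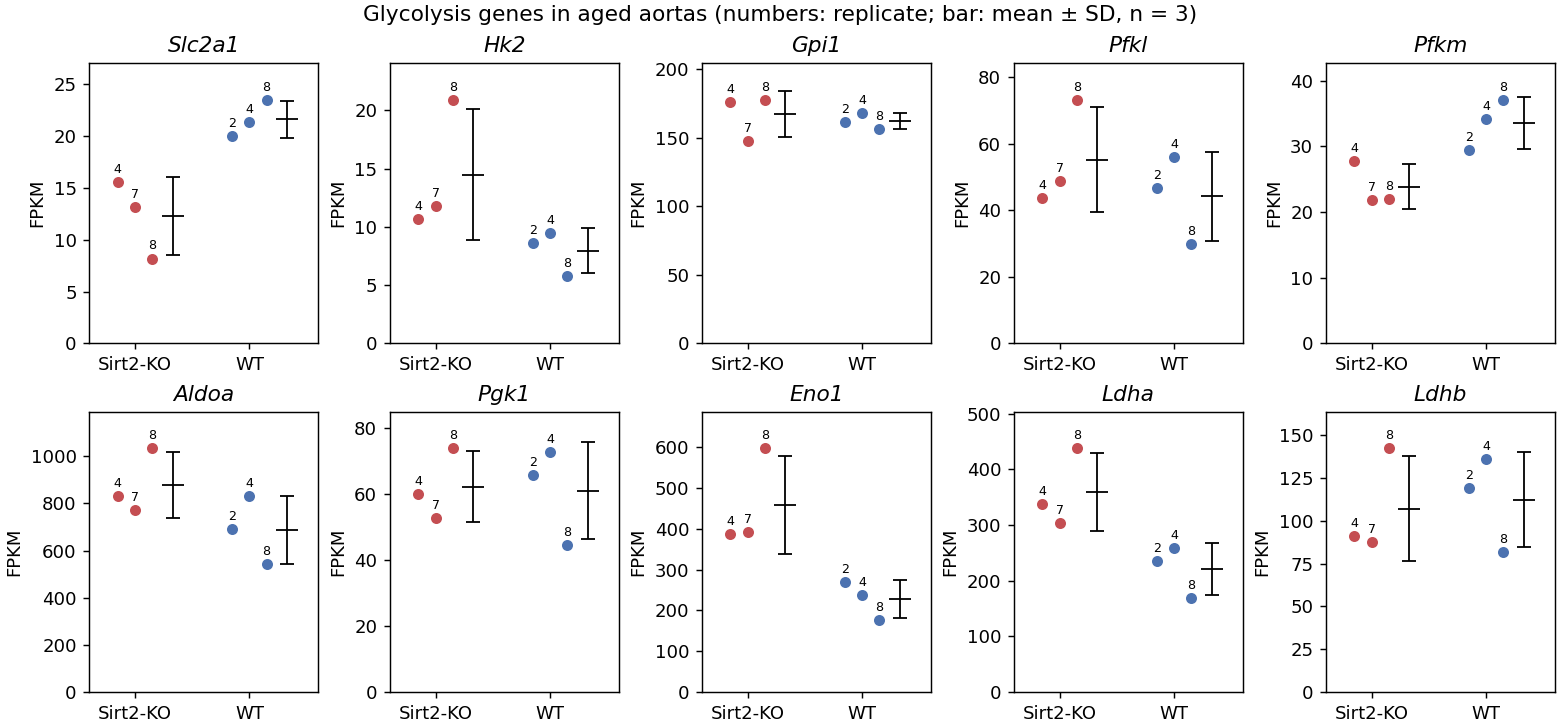
FPKM of each of the 10 glycolysis genes in the 3 Sirt2-KO (red, left) and 3 WT (blue, right) aortas. Numbers are the replicate, and the black bar beside the points is the mean ± SD (n = 3). Eno1, Ldha and Hk2 lay wholly above WT in Sirt2-KO, Slc2a1 and Pfkm wholly below, and the other 5 genes overlapped.

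Slc2a1 encodes GLUT1, the basal glucose transporter. Its transcript had 15.5, 13.2 and 8.19 FPKM in Sirt2-KO replicates 4, 7 and 8, against 20.02, 21.3 and 23.5 FPKM in WT replicates 2, 4 and 8. All Sirt2-KO values were below all WT values, with the lowest in Sirt2-KO replicate 8 and the highest in WT replicate 8. The means were 12.3 ± 3.76 FPKM in Sirt2-KO and 21.6 ± 1.76 FPKM in WT (SD, n = 3 each). Its log2 difference of -0.81 (SE 0.222, 95% interval -1.33 to -0.28) did not pass (adjusted p = 0.0985, limma).

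Hk2 encodes the insulin-responsive hexokinase that traps glucose as glucose 6-phosphate. It had 10.7, 11.8 and 20.9 FPKM in Sirt2-KO replicates 4, 7 and 8, against 8.59, 9.46 and 5.80 FPKM in WT replicates 2, 4 and 8. The groups lay apart, but Sirt2-KO replicate 4 and WT replicate 4 were close, and the highest value was that of Sirt2-KO replicate 8. Hk2 averaged 14.5 ± 5.62 FPKM in Sirt2-KO and 7.95 ± 1.92 FPKM in WT, 1.82-fold by the ratio of means (log2 difference 0.75, SE 0.280, adjusted p = 0.164, limma). Hk1, the hexokinase of most tissues, was at 27.2 ± 5.10 FPKM in Sirt2-KO and 32.0 ± 4.54 FPKM in WT (log2 difference -0.23, adjusted p = 0.407, limma).

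Gpi1, the glucose 6-phosphate isomerase, was the steadiest member. It had 176, 148 and 178 FPKM in Sirt2-KO replicates 4, 7 and 8, against 162, 168 and 156 FPKM in WT replicates 2, 4 and 8. The Sirt2-KO values enclosed all WT values. The log2 difference of 0.04 had a 95% interval of -0.25 to 0.33 (adjusted p = 0.852, limma), and its sign turned under several alternatives, among them quantile normalization.

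Phosphofructokinase, which commits fructose 6-phosphate to glycolysis, has a liver-type (Pfkl), a muscle-type (Pfkm) and a platelet-type (Pfkp) subunit. Pfkl had 43.6, 48.7 and 73.2 FPKM in Sirt2-KO replicates 4, 7 and 8, against 46.6, 56.0 and 29.8 FPKM in WT replicates 2, 4 and 8. The genotypes overlapped, with Sirt2-KO replicate 8 highest and WT replicate 8 lowest (log2 difference 0.33, 95% interval -0.33 to 0.98, adjusted p = 0.473, limma). Pfkm had 27.8, 21.8 and 22.0 FPKM in the Sirt2-KO aortas, against 29.4, 34.2 and 37.1 FPKM in the WT aortas in the same order of replicates. Every Sirt2-KO value was below every WT value, though Sirt2-KO replicate 4 and WT replicate 2 nearly met. Pfkm averaged 23.8 ± 3.41 FPKM in Sirt2-KO and 33.5 ± 3.90 FPKM in WT (log2 difference -0.48, SE 0.147, adjusted p = 0.118, limma). Pfkp, named here for the same step, stood at 30.9, 24.1 and 30.9 FPKM in Sirt2-KO and 41.5, 42.2 and 45.6 FPKM in WT, also with no overlap (log2 difference -0.58, SE 0.133, adjusted p = 0.0688, limma).

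Aldoa, the aldolase that cleaves fructose 1,6-bisphosphate, was the most abundant of the 10 genes in both genotypes. It had 831, 770 and 1034 FPKM in Sirt2-KO replicates 4, 7 and 8, against 693, 829 and 542 FPKM in WT replicates 2, 4 and 8. Sirt2-KO replicates 4 and 7 lay within or just above the WT range, and Sirt2-KO replicate 8 lay well above it. The log2 difference was 0.36 (95% interval -0.14 to 0.86, adjusted p = 0.312, limma). Pgk1, the phosphoglycerate kinase that makes the first ATP of the lower pathway, had 60.0, 52.6 and 73.8 FPKM in Sirt2-KO, against 65.8, 72.6 and 44.5 FPKM in WT. The genotypes overlapped almost fully (log2 difference 0.04, 95% interval -0.47 to 0.55, adjusted p = 0.911, limma).

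Eno1, the enolase that forms phosphoenolpyruvate, had the largest difference of the 10 genes in size. It had 387, 392 and 597 FPKM in Sirt2-KO replicates 4, 7 and 8, against 269, 237 and 177 FPKM in WT replicates 2, 4 and 8. Even the lowest Sirt2-KO aorta was well above the highest WT aorta. Eno1 averaged 459 ± 120 FPKM in Sirt2-KO and 228 ± 47.0 FPKM in WT, a ratio of 2.01 (log2 difference 0.998, SE 0.235, 95% interval 0.44 to 1.55). It missed the threshold (adjusted p = 0.0741, limma). Eno1b, a near-identical copy of Eno1 with which reads can be shared, stood at 47.4, 48.9 and 73.6 FPKM in Sirt2-KO and 35.7, 30.6 and 24.8 FPKM in WT. With both summed as 1 gene, a choice made after seeing the data, the log2 difference was 0.98 (adjusted p = 0.0760, limma).

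Ldha and Ldhb encode the A and B subunits of lactate dehydrogenase, of which the A form is known for favouring lactate formation and the B form pyruvate formation. Ldha had 337, 304 and 438 FPKM in Sirt2-KO replicates 4, 7 and 8, against 236, 259 and 169 FPKM in WT replicates 2, 4 and 8. No WT aorta reached the lowest Sirt2-KO value. The means were 360 ± 69.9 FPKM in Sirt2-KO and 221 ± 46.9 FPKM in WT, a ratio of 1.62 (log2 difference 0.70, SE 0.215, adjusted p = 0.118, limma). Ldhb had 91.1, 87.4 and 142 FPKM in Sirt2-KO, against 119, 136 and 81.8 FPKM in WT. Its genotypes overlapped, and its log2 difference of -0.07 had a 95% interval of -0.68 to 0.53 (adjusted p = 0.870, limma).

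**Figure D2:**
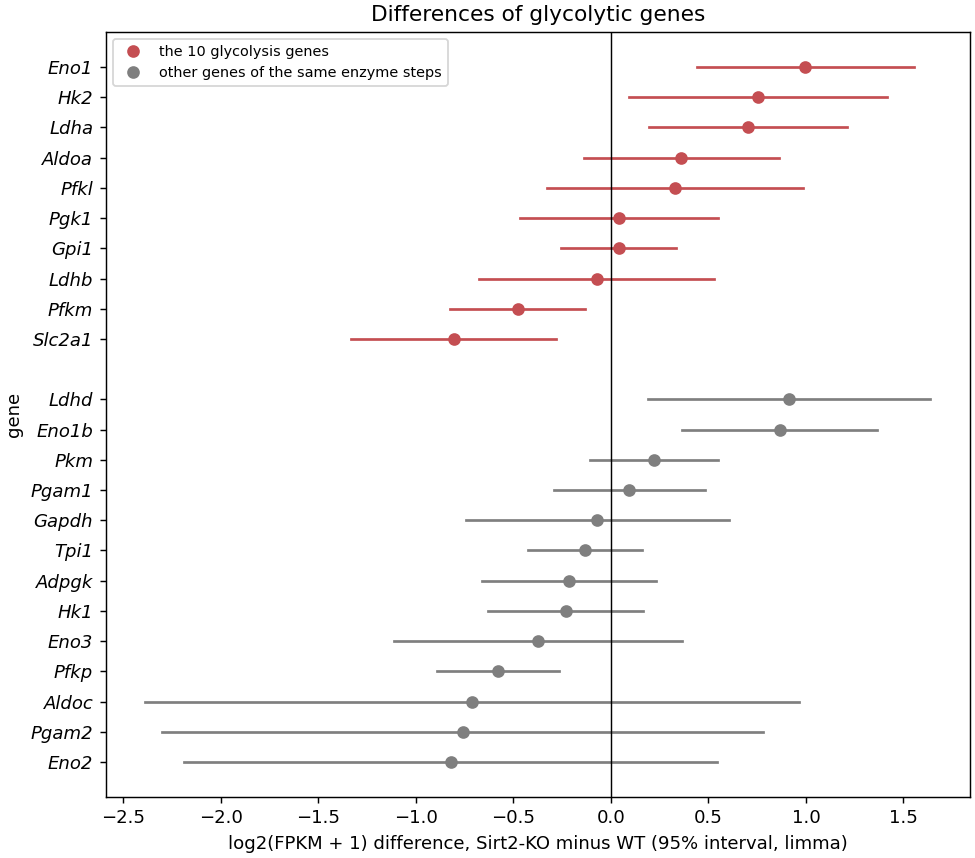
Differences in log2(FPKM + 1), Sirt2-KO minus WT, with 95% intervals from limma, for the 10 glycolysis genes (red, top) and 13 other genes of the same enzyme steps (grey). Of the red genes, the intervals of Eno1, Hk2 and Ldha lay above 0 and those of Pfkm and Slc2a1 below 0 before correction for multiple tests. Of the grey genes, the intervals of Eno1b and Ldhd lay above 0 and that of Pfkp below 0. No gene shown passed after correction.

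Levels in FPKM are per transcript length and can be set side by side, with the limit that a gene's sum can be partial. In Sirt2-KO the order of the mean levels was Aldoa, Eno1, Ldha, Gpi1, Ldhb, Pgk1, Pfkl, Pfkm, Hk2 and Slc2a1. In WT the first 8 places were the same and the last 2 were exchanged, with Slc2a1 above Hk2. The ranges of Eno1 and Ldha overlapped in both genotypes, as did those of Pgk1 and Pfkl. Pfkl and Pfkm did not overlap in Sirt2-KO and did in WT. Hk2 and Slc2a1 overlapped in Sirt2-KO, at 10.7 to 20.9 FPKM for Hk2 and 8.19 to 15.5 FPKM for Slc2a1. In WT they lay apart, at 5.80 to 9.46 FPKM for Hk2 and 20.02 to 23.5 FPKM for Slc2a1.

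Ratios between isozymes within an aorta do not change when a library is scaled by a common factor. Ldhb made up 21.3%, 22.3% and 24.5% of the summed Ldha and Ldhb FPKM in Sirt2-KO replicates 4, 7 and 8, against 33.5%, 34.4% and 32.6% in WT replicates 2, 4 and 8. The gap between the groups was wider than the range within either of them. The means were 22.7 ± 1.66% in Sirt2-KO and 33.5 ± 0.896% in WT, 10.8 points apart (exact two-sided permutation p = 0.1, the smallest that 3 against 3 allows). Among the shares examined here, that of Ldhb had the smallest SD in each genotype.

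The other 3 shares also lay apart between genotypes, each at the smallest possible p (exact two-sided permutation p = 0.1), but with wider spreads. Hk2 was 24.4%, 32.0% and 47.0% of Hk1 and Hk2 in Sirt2-KO and 22.6%, 24.4% and 13.5% in WT, so that replicate 4 of each genotype nearly coincided. Pfkl was 42.7%, 51.5% and 58.1% of the 3 phosphofructokinase genes in Sirt2-KO and 39.7%, 42.3% and 26.5% in WT, again with both replicates 4 close to each other. Slc2a1 was 29.7%, 24.4% and 10.3% of the sum with Slc2a4, the insulin-responsive transporter GLUT4 of fat and muscle, in Sirt2-KO and 37.7%, 38.4% and 58.5% in WT. Without Sirt2-KO replicate 8 the difference in the Hk2 share was 8.07 points, against 14.3 points with it. The Slc2a1 share had to lie apart, since Slc2a1 was lower and Slc2a4 higher in every Sirt2-KO aorta than in any WT aorta. The other shares, that of Ldhb included, also hold genes that lay apart by themselves (Ldha, Hk2, Pfkm and Pfkp). The shares thus add no independent result, and no background of shares of other genes was made.

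**Figure D3:**
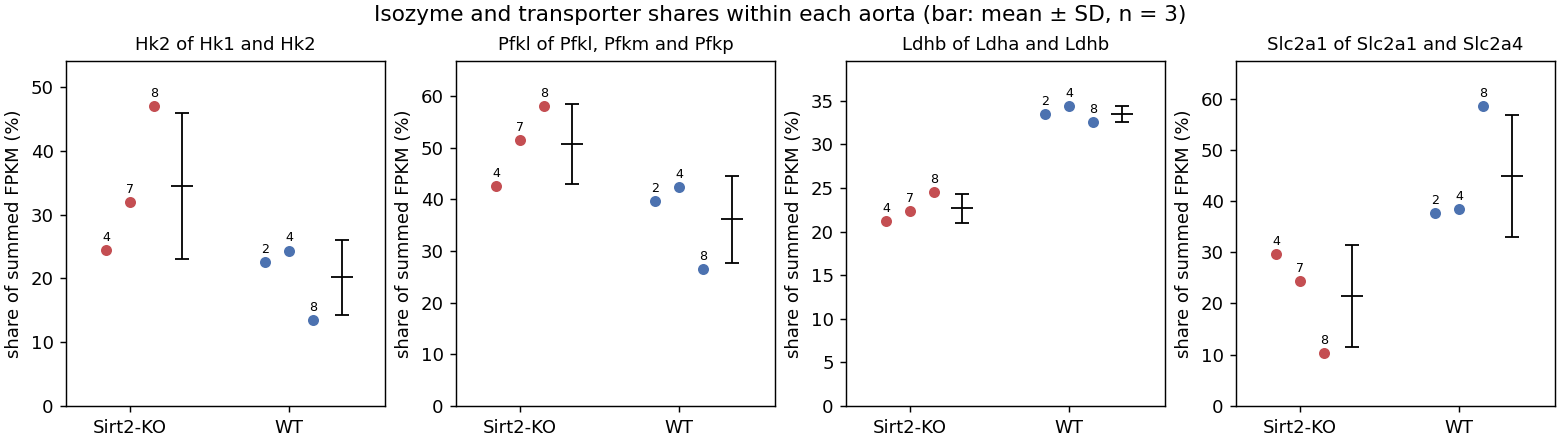
Share of each first-named gene in the summed FPKM of its set, in percent, in the 3 Sirt2-KO (red, left) and 3 WT (blue, right) aortas, with the mean ± SD (n = 3) beside the points. The Ldhb share sat between 21.3% and 24.5% in Sirt2-KO and between 32.6% and 34.4% in WT, while the other 3 shares spread more widely within each genotype.

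Across single mice, 7 of the 10 genes had their ends in the same aortas. Sirt2-KO replicate 8 had the highest value in 8 of the 10 genes and WT replicate 8 the lowest in 7, and for 7 genes (Hk2, Pfkl, Aldoa, Pgk1, Eno1, Ldha and Ldhb) both held. The same was true of 8.96% of all tested genes. Slc2a1 ran the other way, with its lowest value in Sirt2-KO replicate 8 and its highest in WT replicate 8. Pfkm was also highest in WT replicate 8 but lowest in Sirt2-KO replicate 7, and Gpi1 was highest in Sirt2-KO replicate 8 and lowest in Sirt2-KO replicate 7. The 10 genes summed to 1980, 1848 and 2588 FPKM in Sirt2-KO replicates 4, 7 and 8, against 1649, 1824 and 1267 FPKM in WT replicates 2, 4 and 8. No test was made of that sum.

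With both mice numbered 8 left out, a setting chosen after seeing the data, the log2 difference was 0.62 for Eno1, 0.37 for Ldha, 0.29 for Hk2, -0.35 for Pfkm and -0.50 for Slc2a1. None of these passed (adjusted p between 0.308 and 0.586, limma). The signs of Pfkl (-0.15), Pgk1 (-0.30) and Gpi1 (-0.0308) were then opposite to those with all mice. Ldhb was at -0.51 in place of -0.07, and did not pass (adjusted p = 0.329, limma).

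Markers of other cell types were read in the same aortas. White adipocyte markers were listed for 20 of 21 names, with Lep not listed and none at 0, and summed to 7361 to 10671 FPKM in Sirt2-KO and 946 to 3737 FPKM in WT. Sirt2-KO replicate 8 had the highest of these sums and WT replicate 8 the lowest. Of the 20 tested, 5 were higher by adjusted p and 0 lower, with a median log2 difference of 1.87. Over all tested genes 2.29% were higher and 0.616% lower by adjusted p (limma). Brown adipocyte markers (12 of 15 listed, none at 0) with 0 passing, summed to 522 to 1124 FPKM in Sirt2-KO and 152 to 1281 FPKM in WT, the lowest again in WT replicate 8. Without Fabp4 and Cidea, which other marker lists share, the 18 remaining white adipocyte markers summed to 5939 to 8584 FPKM in Sirt2-KO and 495 to 1931 FPKM in WT, with the same aortas at the ends. The part of fat in the glycolysis values was not tested.

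Red blood cell markers (6 of 12 listed, none at 0, 0 passing) summed to 461 to 1398 FPKM in Sirt2-KO and 250 to 383 FPKM in WT. For the counts that follow, 2.29% of all tested genes were higher and 0.616% lower by adjusted p (limma). Macrophage markers (19 of 20 listed, with Cx3cr1 and Itgam at 0 in some aorta, 2 higher by adjusted p) summed to 525 to 867 FPKM in Sirt2-KO and 186 to 473 FPKM in WT. Fibroblast markers (16 of 16 listed, none at 0, 7 higher by adjusted p) summed to 3407 to 5948 FPKM in Sirt2-KO and 1792 to 2200 FPKM in WT. Endothelial markers (19 of 19 listed, none at 0, 0 passing) include Fabp4, which the white adipocyte list also holds and which made up most of their sum of 1898 to 2428 FPKM in Sirt2-KO and 1042 to 2531 FPKM in WT, WT replicate 8 excepted. Without Fabp4, a setting chosen after seeing the data, the other 18 endothelial markers summed to 561 to 686 FPKM in Sirt2-KO and 616 to 1028 FPKM in WT, and the genotypes overlapped. Schwann cell markers (10 of 14 listed, none at 0, 2 lower by adjusted p) summed to 146 to 166 FPKM in Sirt2-KO and 177 to 372 FPKM in WT. The part of these cells in the glycolysis values was not tested either.

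Skeletal and heart muscle markers were listed for 16 of 32 names, with Myl7, Mybpc3 and Nppa at 0 in some aorta. They summed to 116 to 138 FPKM in Sirt2-KO and to 149, 772 and 143 FPKM in WT replicates 2, 4 and 8. Of the 15 tested, 1 was higher and 14 lower, with a median log2 difference of -1.16. By adjusted p 0 were higher and 1 lower (2.29% and 0.616% of all tested genes). That gene was Ryr2 (log2 difference -1.43, adjusted p = 0.0370, limma), lower in every Sirt2-KO aorta than in any WT aorta. The aorta that stood out, WT replicate 4, was also the one with the highest Eno3, the muscle enolase, at 16.1 FPKM against 6.13 to 7.93 FPKM in the other 5. None of the 10 glycolysis genes had its highest or lowest value of all aortas there. Among the WT aortas alone, the highest value of Hk2, Gpi1, Pfkl, Aldoa, Pgk1, Ldha and Ldhb was there. That of Pfkm, Eno1 and Slc2a1 was not. Without WT replicate 4 the log2 difference was 0.52 for Pfkl, 0.51 for Aldoa and 0.83 for Ldha, against 0.33, 0.36 and 0.70 with all mice. That of Slc2a1 was -0.81 in both. The part of muscle in the glycolysis values was not tested.

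**Figure D4:**
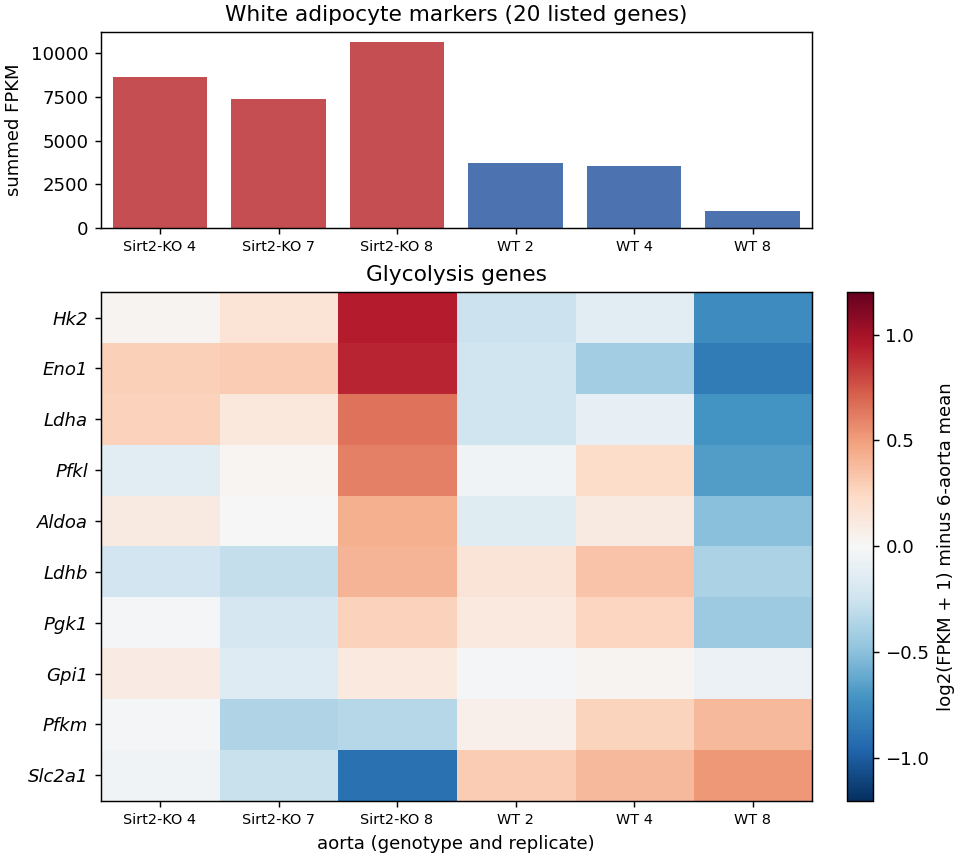
Top, summed FPKM of 20 white adipocyte markers in each aorta, Sirt2-KO in red and WT in blue. Bottom, log2(FPKM + 1) of each glycolysis gene minus its mean over the 6 aortas, from blue (lower) to red (higher). Sirt2-KO replicate 8 held the highest values of 8 genes and WT replicate 8 the lowest of 7, and their adipocyte sums were 10671 and 946 FPKM.

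The rows behind each gene were examined on their own, since several rows can share a name and carry no transcript identifier. Hk2, Pfkl, Pfkm, Pgk1, Ldha, Ldhb and Slc2a1 had 1 row each, Gpi1 3, Eno1 5 and Aldoa 9. In a fit over all 13627 tested rows, added after seeing the data, 0.851% of rows passed and no row of the 10 genes did (limma). The smallest adjusted p was 0.128, for the third row of Aldoa by mean level, which stood at 80.8, 103 and 104 FPKM in Sirt2-KO replicates 4, 7 and 8 and 16.5, 55.9 and 17.4 FPKM in WT replicates 2, 4 and 8.

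The division of Aldoa between rows was unlike the others in WT replicate 2. There the 2 largest rows held 64.9 and 589 FPKM. In the other 5 aortas the first of these rows held 318 to 426 FPKM and the second 155 to 400 FPKM. Using only the highest row of each name, the log2 difference of Aldoa was 0.85 in place of 0.36, and it did not pass. Eno1 took 69.8% to 98.2% of its FPKM from its largest row, which alone had 330, 337 and 518 FPKM in Sirt2-KO and 250, 166 and 174 FPKM in WT.

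Pkm, the pyruvate kinase of most tissues, was divided between 2 rows. The row with the lower mean made up 20.2%, 54.2% and 31.9% of Pkm in Sirt2-KO replicates 4, 7 and 8, against 15.8%, 14.3% and 11.6% in WT replicates 2, 4 and 8. Pkm totals were higher in every Sirt2-KO aorta than in any WT aorta, at 508, 463 and 572 FPKM in Sirt2-KO and 445, 444 and 429 FPKM in WT (log2 difference 0.22, adjusted p = 0.340, limma). The spliced form behind each row is not named in the table.

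**Figure D5:**
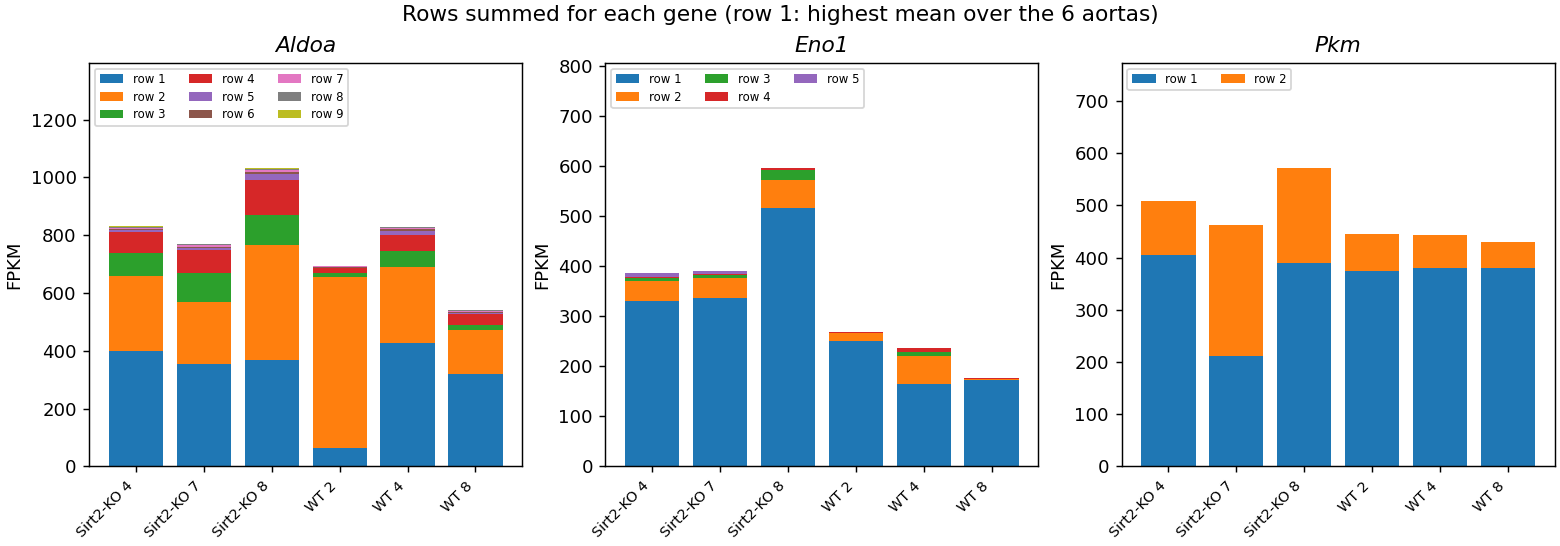
FPKM of the rows summed for Aldoa, Eno1 and Pkm, stacked in each of the 6 aortas, with rows numbered by their mean level. In WT replicate 2 the second row of Aldoa held 589 FPKM and the first 64.9 FPKM, and the row of Pkm with the lower mean was 20.2% to 54.2% of the gene in Sirt2-KO and 11.6% to 15.8% in WT.

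Of 24 names of other genes of the same enzyme steps 13 were listed and tested, 4 were higher and 9 lower, and 0 passed by limma. Before correction 2 were higher and 1 lower at p under 0.05, where 12.4% of all tested genes were higher and 12.4% lower, with a median log2 difference of -0.21. The triose phosphate isomerase gene Tpi1 (167 ± 13.9 FPKM in Sirt2-KO, 183 ± 12.2 FPKM in WT) and the phosphoglycerate mutase gene Pgam1 (124 ± 12.7 FPKM in Sirt2-KO, 117 ± 20.1 FPKM in WT) overlapped between genotypes. The D-lactate dehydrogenase gene Ldhd, a mitochondrial enzyme of another lactate isomer, had 5.94, 8.44 and 12.8 FPKM in Sirt2-KO against 4.03, 5.75 and 2.99 FPKM in WT (log2 difference 0.91, adjusted p = 0.139, limma).

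Among 11 tested hexose and lactate carriers (of 20 names) 0 passed by limma, with a median log2 difference of -0.31. At an unadjusted p under 0.05, 2 were higher, where 12.4% of all tested genes were. Slc2a4 had 36.8, 40.9 and 71.1 FPKM in Sirt2-KO against 33.1, 34.2 and 16.7 FPKM in WT (adjusted p = 0.201, limma). Slc2a5, the fructose transporter GLUT5, had 1.61, 3.30 and 4.34 FPKM in Sirt2-KO, against 0.0971 and 0.0850 FPKM in WT replicates 2 and 4 and a listing at 0 in WT replicate 8 (log2 difference 1.89, adjusted p = 0.0814, limma). The lactate carriers Slc16a1 (13.1 ± 7.22 FPKM in Sirt2-KO, 8.59 ± 5.30 FPKM in WT) and Slc16a3 (4.97 ± 2.33 FPKM in Sirt2-KO, 6.96 ± 2.54 FPKM in WT) overlapped between genotypes. Slc16a7 was lower in Sirt2-KO without overlap (log2 difference -0.69, adjusted p = 0.214, limma). Slc2a13 was lower with overlap (log2 difference -0.66, adjusted p = 0.237, limma).

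Regulators of flux were tested for 6 of 11 names, and 0 passed by limma, with a median of 0.30. At an unadjusted p under 0.05, 1 was higher, where 12.4% of all tested genes were. That gene was Pfkfb1, a fructose 2,6-bisphosphate enzyme, at 5.38, 4.63 and 5.55 FPKM in Sirt2-KO and 2.13 and 1.42 FPKM in WT replicates 2 and 4, with a listing at 0 in WT replicate 8 (adjusted p = 0.0973, limma). Pfkfb3, its relative with high kinase activity, overlapped at 18.6 ± 6.25 FPKM in Sirt2-KO and 11.9 ± 5.63 FPKM in WT. Tigar (log2 difference -0.42, adjusted p = 0.288, limma) and Txnip (log2 difference 0.34, adjusted p = 0.443, limma) overlapped as well.

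At the exit of glycolysis, 11 of 16 names of the pyruvate dehydrogenase list were tested. Of these 10 were higher and 1 lower, 0 passed by limma, and 5 were higher at an unadjusted p under 0.05 (12.4% of all tested genes), with a median of 0.67. The complex turns pyruvate into acetyl-CoA in mitochondria. Its E1 subunit genes Pdha1 (153 ± 43.3 FPKM in Sirt2-KO, 74.6 ± 16.5 FPKM in WT, adjusted p = 0.0780) and Pdhb (141 ± 46.2 FPKM in Sirt2-KO, 66.0 ± 24.5 FPKM in WT, adjusted p = 0.1199) and the pyruvate carrier gene Mpc1 (133 ± 13.1 FPKM in Sirt2-KO, 80.2 ± 22.1 FPKM in WT, adjusted p = 0.106) had no overlap between genotypes. Pdk1, a kinase that inhibits the complex, had 7.19, 8.65 and 9.86 FPKM in Sirt2-KO against 3.74, 4.89 and 3.42 FPKM in WT (log2 difference 0.93, adjusted p = 0.0550, limma). Pdk4 overlapped between genotypes at 60.5 ± 39.9 FPKM in Sirt2-KO and 38.7 ± 29.3 FPKM in WT (adjusted p = 0.590, limma). In this list Sirt2-KO replicate 8 was highest and WT replicate 8 lowest in 10 of 11 genes each. Of all tested genes, 14.6% were highest in Sirt2-KO replicate 8 and 19.4% lowest in WT replicate 8. The white adipocyte sums had the same aortas at their ends, and the part of fat in this list was not tested.

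Genes that passed were found in 3 of the lists. Of 10 tested genes of gluconeogenesis and glycerol phosphate 1 rose and 0 fell, of 17 of the glycogen and polyol branches 3 rose and 0 fell, and of 18 hypoxia and sugar-sensing genes 1 rose and 0 fell (2.29% of all tested genes rose and 0.616% fell). The medians of the 3 lists were 0.31, 0.24 and -0.24. In the hypoxia list 4 genes were lower at an unadjusted p under 0.05 (12.4% of all tested genes), and 1 of them is Slc2a1, described above. The liver-type glycogen phosphorylase gene Pygl rose to 35.2, 53.0 and 94.9 FPKM in Sirt2-KO, against 10.8, 11.3 and 6.57 FPKM in WT (log2 difference 2.47, adjusted p = 0.0245, limma). Muscle-type Pygm did not pass and stood at 29.0, 27.2 and 21.2 FPKM in Sirt2-KO and 38.9, 38.1 and 51.7 FPKM in WT (adjusted p = 0.0780, limma). In the gluconeogenesis list Gk was lower without overlap (log2 difference -1.10, adjusted p = 0.123, limma). Pck1 (log2 difference 2.24, adjusted p = 0.154, limma) and Gpd2 (log2 difference 1.08, adjusted p = 0.181, limma) were higher without overlap.

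Gys1, a glycogen synthase, rose to 22.9 ± 6.06 FPKM in Sirt2-KO against 8.66 ± 2.40 FPKM in WT (adjusted p = 0.0454, limma). Gfpt2, which takes fructose 6-phosphate into hexosamines, rose to 23.1 ± 3.31 FPKM in Sirt2-KO against 6.54 ± 2.94 FPKM in WT (adjusted p = 0.0324, limma). Mlxipl, the carbohydrate response factor ChREBP, rose to 8.58, 12.5 and 18.9 FPKM in Sirt2-KO against 2.83, 3.32 and 0.960 FPKM in WT (adjusted p = 0.0383, limma). Pcx, which carboxylates pyruvate, rose to 188 ± 41.2 FPKM in Sirt2-KO against 14.96 ± 7.63 FPKM in WT (adjusted p = 0.0108, limma). Of 18 alternatives, Gys1 lost its call in 13, Mlxipl in 10, Gfpt2 in 7, Pygl in 5 and Pcx in 3. All 5 lost it with the replicate block (adjusted p between 0.136 and 0.466), and with either replicate 7 or replicate 8 of Sirt2-KO left out (adjusted p between 0.0663 and 0.171). Their direction was the same in all 18, and without Sirt2-KO replicate 7 or 8 the log2 difference was 3.71 or 3.53 for Pcx against 3.69 with all mice, and 1.39 or 1.11 for Gys1 against 1.31. The adipocyte marker sums given above were higher in Sirt2-KO as well, and their part in these rises was not tested.

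Of the hypoxia genes, Hif1a, the oxygen-regulated subunit of the factor that drives many glycolytic genes, had 18.9, 17.2 and 13.1 FPKM in Sirt2-KO against 23.8, 19.99 and 24.2 FPKM in WT. The genotypes lay apart, with Sirt2-KO lower (log2 difference -0.45, adjusted p = 0.156, limma). Its partner gene Arnt had 6.86 ± 0.302 FPKM in Sirt2-KO and 9.01 ± 0.765 FPKM in WT (adjusted p = 0.174, limma), and Epas1 overlapped at 96.3 ± 14.3 FPKM in Sirt2-KO and 106 ± 18.4 FPKM in WT.

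Sequence before the transcription start was read for all 10 genes from RefSeq (GRCm38.p6), as the 250 bases upstream of each of 18 listed starts. The letters ACGTG, a form of the core that hypoxia-inducible factors bind, were searched on both strands. The form GCGTG was not searched. ACGTG was found before 8 of the 18 starts, and in 16.6% of 32851 windows of that length in the genome. By gene ACGTG was found in 6 of the 10, to which that share does not apply, since a gene can have several windows. Windows 2 and 3 of Aldoa overlap and hold the same site, which is counted at both starts. CACGTG, the E-box, which contains ACGTG on both strands, was found before 2 of the 18 starts and in 6.02% of all windows. The windows below belong to 2 genes that were higher without passing and 1 that was lower without passing, with ACGTG or its reverse complement in capitals.
Ldha, chr7:46845554-46845803, plus strand: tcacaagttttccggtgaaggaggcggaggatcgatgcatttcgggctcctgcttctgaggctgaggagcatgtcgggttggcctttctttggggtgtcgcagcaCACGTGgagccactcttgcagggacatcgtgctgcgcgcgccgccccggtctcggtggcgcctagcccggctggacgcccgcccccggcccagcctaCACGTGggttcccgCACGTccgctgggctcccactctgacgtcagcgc
Hk2, chr6:82774455-82774704, minus strand: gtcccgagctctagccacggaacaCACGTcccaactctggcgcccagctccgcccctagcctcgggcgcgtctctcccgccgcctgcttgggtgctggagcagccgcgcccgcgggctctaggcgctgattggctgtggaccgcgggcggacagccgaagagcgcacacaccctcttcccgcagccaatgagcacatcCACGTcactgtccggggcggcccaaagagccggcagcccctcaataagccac
Slc2a1, chr4:119108495-119108744, plus strand: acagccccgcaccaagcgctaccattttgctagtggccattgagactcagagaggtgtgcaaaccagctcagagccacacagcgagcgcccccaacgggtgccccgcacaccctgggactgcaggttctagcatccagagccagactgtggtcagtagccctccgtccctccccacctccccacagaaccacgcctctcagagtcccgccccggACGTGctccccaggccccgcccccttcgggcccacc

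The Ldha window held CACGTG at 2 places and CACGT at 1 more, the Hk2 window held CACGT at 2 places, and the Slc2a1 window held ACGTG once. The 3 windows of Eno1, the gene with the largest difference, held neither ACGTG nor CACGTG, nor did those of Gpi1, Pfkl and Ldhb. The form GCGTG was not searched in them, so a lack of the core is not shown. Letters in a window are a description and show no binding.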

How the data were processed

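Total RNA of 6 aortas was sequenced, and samples were grouped by genotype from their titles. The authors deposited 1 table of FPKM values, per the file headers, with 14083 rows and a column for each sample. Per the submitters' processing notes, Bowtie 0.12.2 and mm9 were used, though for which step is not said. No source used here gives the quantifier, the annotation or any filter. Every row had a variance of at least 1.00003 over the 6 samples, so a gene's sum can be partial where a row is not listed. Depth is unknown: the table holds no counts, and values as low as 0.000001 FPKM are not steps of whole reads, so no counting interval is given.

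After 39 rows with dates as names were left out, rows were summed per name. The 8605 of 8690 genes averaging 1 FPKM or more entered limma 3.58.1 (R 4.3.3, eBayes with a trended variance, Benjamini-Hochberg correction) on log2(FPKM + 1), which understates differences of low genes. Shares were compared with exact permutation tests in SciPy 1.17.1. The limma p-values set the difference between genotypes against the spread among mice of the same genotype, moderated across genes. The permutation p-values rest on regroupings of the 6 mice. In data simulated for Sirt2-KO against WT over 8605 genes, calls were made for 62 of 100 genes shifted by a log2 difference of 1, for 88 of 100 shifted by 2 and for 10 unshifted genes. The simulated noise was drawn for each gene on its own. Genes of the real aortas can vary together by mouse, so these rates need not hold for them. The 10 genes and all lists were chosen with earlier results of these data known. Named genes are the 10, Sirt2, and of each pathway list the called members, the 4 with the smallest p and a fixed set of common isozymes and regulators. Alternatives covered pseudocounts, filters, scalings, the spread model, sample weights, rows, a replicate block and leaving out single mice; leaving out both mice numbered 8, the fit of single rows, the sum of Eno1 and Eno1b and marker sums without shared genes were chosen after seeing the data. Gene names are the table's own. Some lists hold 2 names of 1 gene, such as Emr1 beside Adgre1, Pkm2 beside Pkm and Brp44l beside Mpc1. Fewer genes than names are therefore missing. Promoter windows come from RefSeq GRCm38.p6, a build other than mm9, and were matched by symbol for 10 of 10 genes. Figures were drawn with matplotlib 3.10.9.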

Additional observations from a re-analysis of the deposited data

How the results depend on the processing

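The count of 250 genes past the threshold was 1114 with arrayWeights, 151 with only the highest row per gene, 41 with both mice numbered 8 left out and 28 to 342 with single mice left out. The lower counts came on leaving out mouse 7 (28) or 8 (29) of Sirt2-KO, or mouse 2 (71) or 8 (148) of WT. Of the 10 glycolysis genes 3 passed with arrayWeights (Pfkm, adjusted p = 0.0359, Eno1, 0.0397, and Slc2a1, 0.0442, where 12.9% of all genes passed), and 0 in the other 17 alternatives by limma, where 2 to 5 had an unadjusted p under 0.05. Eno1, Ldha, Hk2, Aldoa, Pfkm and Slc2a1 kept their direction in all alternatives run, with Eno1 between 0.62 and 1.23, Ldha between 0.37 and 0.87, Hk2 between 0.29 and 0.93, Aldoa between 0.08 and 0.85, Pfkm between -0.59 and -0.35 and Slc2a1 between -0.99 and -0.50 on the log2 scale. Genes near 0 changed sign. Gpi1 was -0.0850 with quantile normalization, -0.0019 with an equal sum, -0.0518 with arrayWeights, -0.0308 without both mice numbered 8 and -0.0062 to 0.1262 with single mice left out. Pgk1 was -0.0177 with quantile normalization, -0.0439 with arrayWeights, -0.30 without both mice numbered 8 and -0.17 to 0.18 with single mice left out. Pfkl was -0.15 without both mice numbered 8. Ldhb was 0.11 with the replicate block and -0.2964 to 0.0796 with single mice left out, and -0.51 without both mice numbered 8. The causes were not tested.

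The replicate numbers 4 and 8 occur in both genotypes, but the labels do not say that they pair mice, and same-numbered mice did not deviate together (r = -0.049 for number 4 and -0.452 for number 8 over genes). With the number as a block only 3 genes were called, Sirt2 missed the threshold (-3.63, adjusted p = 0.0792), and 0 of the 10 genes passed. Shares kept their sign in all 7 alternatives each: with single mice left out the difference was 8.07 to 19.4 points for Hk2, 9.75 to 18.6 for Pfkl, -11.7 to -10.1 for Ldhb and -27.5 to -16.6 for Slc2a1. With 3 mice a group and no depth, small differences cannot be resolved.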

Other observations

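Gapdh, the glyceraldehyde 3-phosphate dehydrogenase gene often used as a reference in expression assays, overlapped between genotypes at 85.8, 85.3 and 104 FPKM in Sirt2-KO replicates 4, 7 and 8, against 101, 141 and 61.9 FPKM in WT replicates 2, 4 and 8 (log2 difference -0.07, 95% interval -0.75 to 0.60, adjusted p = 0.888, limma). Its highest row by mean held 80.8, 68.0 and 102 FPKM in Sirt2-KO, against 95.7, 27.2 and 56.5 FPKM in WT. A second row stood at 110 FPKM in WT replicate 4, against 0.192 to 12.5 FPKM in the other 5 aortas. All 3 rows of Gapdh were summed for the values above.

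Aldoc, the brain-type aldolase, and Slc2a3, the neuronal glucose transporter GLUT3, were low and uneven within both genotypes. Aldoc had 3.22, 0.307 and 0.655 FPKM in Sirt2-KO replicates 4, 7 and 8, against 0.397, 5.44 and 3.47 FPKM in WT replicates 2, 4 and 8. Slc2a3 had 5.32, 1.32 and 0.680 FPKM in Sirt2-KO, against 1.38, 6.21 and 3.82 FPKM in WT. In both genes Sirt2-KO replicate 4 and WT replicates 4 and 8 were above the other 3 aortas. Eno2, the neuronal enolase, had 14.3, 3.76 and 4.01 FPKM in Sirt2-KO and 5.22, 17.9 and 16.1 FPKM in WT, with the same 3 aortas high. Slc2a3 and Eno2 are outside the rule for named genes; their values led to the choice.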
